A study of Mus musculus with 13 samples.

Results

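Genes for 10 plasma and defence proteins of the mouse liver are described here, namely the serum amyloid A genes Saa1, Saa2, Saa3 and Saa4, the orosomucoid genes Orm1, Orm2 and Orm3, lipocalin 2 (Lcn2), haptoglobin (Hp) and serum amyloid P (Apcs). They were picked by name, as rows of the deposited count table whose mouse Ensembl identifiers carry these symbols, and they make up 10 of the 22048 genes in the table. The choice of names was made with their levels against control livers already known. Their differences from control are therefore given as a description without a test, and tests are kept for the direct comparison of depleted with hepatectomised livers and for the comparison of male with female controls.

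Messenger RNA was sequenced from 13 whole mouse livers. The 6 control livers were labelled as not depleted of hepatic stellate cells, the perisinusoidal cells that store vitamin A; 3 came from males (replicates 1, 2 and 6) and 3 from females (replicates 3, 4 and 5). The 4 depleted livers, 1 male (replicate 3) and 3 female, were labelled as depleted of these cells. The 3 hepatectomised livers, 2 male (replicates 1 and 2) and 1 female (replicate 3), were labelled as not depleted and were taken 72 h after partial hepatectomy, an operation in which lobes of the liver are cut away and the rest regrows. Strain, age and the means of depletion are not given in the sources used here, so what the depletion procedure alone does to these genes cannot be told apart from the loss of the cells. The labels name no sequencing batch, and a batch that followed the groups could likewise not be told apart from them.

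Levels are CPM, that is counts divided by the library size after TMM scaling. This scaling corrects for shifts in library composition on the assumption that most genes do not change. Library totals ran from 35360991 to 51008737 counts, and 3 counts correspond to 0.0524 to 0.0900 CPM on this scale. All 12 stellate cell markers fell in the depleted livers, where their summed level was 10.5 to 73.1 CPM against 329 to 842 CPM in controls. The highest of these depleted values, 73.1 CPM, belonged to depleted replicate 4, and the other depleted livers reached 14.9 CPM at most. Hepatocyte markers, which define the tissue, summed to 60560 to 138100 CPM in controls, 62120 to 163300 CPM in depleted and 110100 to 162100 CPM in hepatectomised livers, and 0 of 8 were called different between any groups by edgeR. With 1 liver left out, edgeR called up to 2 of them lower in depleted than in hepatectomised livers. It called up to 1 higher in hepatectomised livers than in controls. At an unadjusted p under 0.05, 1 was lower in depleted and 2 were higher in hepatectomised livers than in controls, and 4 were lower in depleted than in hepatectomised livers; DESeq2 called 0, 1 and 2 of them and limma-voom 0, 0 and 1. In whole-liver RNA, a change in the number of cells of a type and a change in the RNA per cell cannot be told apart.

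The acute phase response is the change in plasma protein synthesis with which the liver answers injury or infection. Interleukin 6 and its relatives act on hepatocytes through the kinase JAK and the factor STAT3, and interleukin 1 and tumour necrosis factor act through NF-κB; C/EBP factors bind many of the target promoters. SAA1 and SAA2 are the apolipoproteins that load onto high-density lipoprotein during inflammation, SAA3 is made by hepatocytes and also by macrophages, adipocytes and epithelia, and SAA4 is the form made constitutively. Orosomucoids, also called alpha-1-acid glycoproteins, are plasma lipocalins that bind drugs and lipids. Lipocalin 2 captures bacterial siderophores and is stored in neutrophil granules as well as being made by hepatocytes. Haptoglobin binds free haemoglobin, and serum amyloid P is a pentraxin and the main acute phase reactant of that family in the mouse.

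The Saa genes lie together on chromosome 7 and the Orm genes on chromosome 4. On GRCm38, GENCODE M21 places Saa3 at chr7:46711998-46715700 on the minus strand, Saa4 at chr7:46727998-46732603 on the minus strand, Saa1 at chr7:46740497-46742980 on the minus strand and Saa2 at chr7:46751790-46754313 on the plus strand. Orm1 lies at chr4:63344560-63348163, Orm3 at chr4:63356162-63359511 and Orm2 at chr4:63362449-63365878, all on the plus strand. The remaining genes are single, with Lcn2 at chr2:32384633-32388252, Hp at chr8:109575128-109579172 and Apcs at chr1:172893961-172895041, all on the minus strand. All 10 are annotated as protein coding, and none overlaps another annotated gene.

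Because reads of near-identical copies may be shared between them, the coding sequences were compared first. Saa1 and Saa2 were 95.1% identical over 366 coding bases and differed at 18 of them, with a longest identical run of 73 bases. Saa1 was 74.3% identical to Saa3 and 64.4% identical to Saa4, whose longest run shared with Saa1 was 15 bases. Orm1 and Orm2 were 89.9% identical and differed at 63 of 621 bases, with a longest identical run of 104 bases; Orm3 was 86.0% identical to Orm1 and 87.9% identical to Orm2. Of all 50-base words of the coding sequence, 14.8% of those of Saa1 were found in Saa2 and 9.79% of those of Orm1 in Orm2. Coding bases 70 to 189 of the Saa pair, with the positions that differ in capitals, hold 12 of the 18 differences and are shown as the part where reads of the 2 genes are easiest to tell apart.
Saa1: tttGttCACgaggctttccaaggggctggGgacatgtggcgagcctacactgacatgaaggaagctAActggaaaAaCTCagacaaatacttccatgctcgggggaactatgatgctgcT
Saa2: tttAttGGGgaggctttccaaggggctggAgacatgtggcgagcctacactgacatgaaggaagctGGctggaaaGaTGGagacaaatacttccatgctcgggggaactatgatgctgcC
Coding bases 139 to 258 of Orm1 and Orm2, again with the differing positions in capitals, hold 26 of their 63 differences.
Orm1: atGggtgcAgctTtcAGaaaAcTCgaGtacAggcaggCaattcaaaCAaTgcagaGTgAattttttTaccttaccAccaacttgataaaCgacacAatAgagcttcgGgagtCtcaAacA
Orm2: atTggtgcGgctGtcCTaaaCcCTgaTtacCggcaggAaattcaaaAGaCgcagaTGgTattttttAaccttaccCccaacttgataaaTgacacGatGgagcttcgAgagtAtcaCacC
How the authors' counting treated reads that matched more than 1 place is not given in the sources used here, so the division of counts between Saa1 and Saa2, and to a smaller degree among the Orm genes, is uncertain.

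RefSeq promoter windows of 250 bases (GRCm38.p6) were at hand for 8 of the 10 genes. They were searched on both strands for C/EBP (TTNNGNAA), STAT (TTCNNNGAA) and TATA box (TATAAA) letters, and for the NF-κB consensus. Windows are printed below for Saa1, Saa2 and Saa3, which differ in how far they lay above control, and for Orm2 and Orm3, the first with its higher mean in hepatectomised and the second in depleted livers. Each is written 5′ to 3′ on the strand of its gene and ends at the base before the start; capitals mark motif matches. The Saa1 window is chr7:46742981-46743230 on the minus strand.
Saa1: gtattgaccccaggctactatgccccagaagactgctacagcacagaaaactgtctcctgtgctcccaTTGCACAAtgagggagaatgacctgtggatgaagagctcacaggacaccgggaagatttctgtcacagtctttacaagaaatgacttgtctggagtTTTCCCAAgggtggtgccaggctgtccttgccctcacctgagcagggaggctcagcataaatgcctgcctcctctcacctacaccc
The Saa2 window is chr7:46751583-46751789 on the plus strand, without its last bases, which lie in an annotated exon.
Saa2: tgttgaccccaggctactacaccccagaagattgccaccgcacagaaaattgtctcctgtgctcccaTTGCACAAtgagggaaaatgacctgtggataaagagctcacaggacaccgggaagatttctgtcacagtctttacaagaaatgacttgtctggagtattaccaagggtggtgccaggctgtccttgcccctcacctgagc
The Saa3 window, trimmed in the same way, is chr7:46715701-46715926 on the minus strand.
Saa3: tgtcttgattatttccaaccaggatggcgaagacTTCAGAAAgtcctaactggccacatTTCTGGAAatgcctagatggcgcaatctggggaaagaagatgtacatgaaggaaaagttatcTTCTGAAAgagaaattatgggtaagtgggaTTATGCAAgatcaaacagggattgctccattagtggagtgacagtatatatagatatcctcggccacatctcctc
The Orm2 window is chr4:63362199-63362448 on the plus strand.
Orm2: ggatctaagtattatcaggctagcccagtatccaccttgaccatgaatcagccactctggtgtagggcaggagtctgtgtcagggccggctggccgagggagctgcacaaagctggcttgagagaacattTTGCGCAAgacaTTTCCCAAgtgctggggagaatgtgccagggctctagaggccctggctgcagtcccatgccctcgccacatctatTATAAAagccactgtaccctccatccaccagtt
The Orm3 window is chr4:63355908-63356157 on the plus strand.
Orm3: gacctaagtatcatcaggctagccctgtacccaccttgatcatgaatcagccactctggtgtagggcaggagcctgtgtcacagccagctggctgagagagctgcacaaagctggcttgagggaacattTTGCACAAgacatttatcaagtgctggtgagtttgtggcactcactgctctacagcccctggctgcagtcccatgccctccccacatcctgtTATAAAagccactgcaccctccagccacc
C/EBP letters were present in 7 of the 8 windows (all but Apcs), against 36.8% of 32851 mouse promoter windows of the same length. RefSeq and GENCODE place some starts differently: 197 of the 250 bases of the Lcn2 window lie in exons of the GENCODE gene given above, as do 43 of the Saa2 and 24 of the Saa3 window. TATA box letters were present in the Orm2 and Orm3 windows and in 12.4% of all windows. STAT letters were present in the Apcs window alone among the 8 and in 7.02% of all windows. NF-κB letters were present in none of the 8 and in 2.82% of all windows, which says only that these letters are not in these windows. The Saa1 and Saa2 windows were 94.8% identical and the Orm2 and Orm3 windows 85.5%, whereas the Saa1 window was 48.2% identical to that of Saa3 and 46.3% to that of Saa4.

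The 10 genes together took 0.367% ± 0.101 of all counts in control livers (SD, n = 6), 1.90% ± 0.609 in depleted livers (n = 4) and 3.30% ± 1.78 in hepatectomised livers (n = 3). The share ran from 0.256% to 0.506% in controls, from 1.22% to 2.51% in depleted and from 1.49% to 5.05% in hepatectomised livers, so neither group overlapped the controls, while they overlapped each other. All 10 genes passed the filter on low counts. By edgeR's quasi-likelihood test with Benjamini-Hochberg adjustment, the depleted livers had 18.9% of the 13831 tested genes called higher than control and 15.0% called lower. The hepatectomised livers had 6.06% called higher and 2.36% called lower, 1164 genes in all, or 632 with the replicate number as a block. All 10 members were called higher in both, a count that follows from how they were picked and is not read further. Their median log2 fold change was 3.70 in the depleted and 3.54 in the hepatectomised livers, beside -0.03 and -0.02 for all genes. Both comparisons share the control livers.

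**Figure D1:**
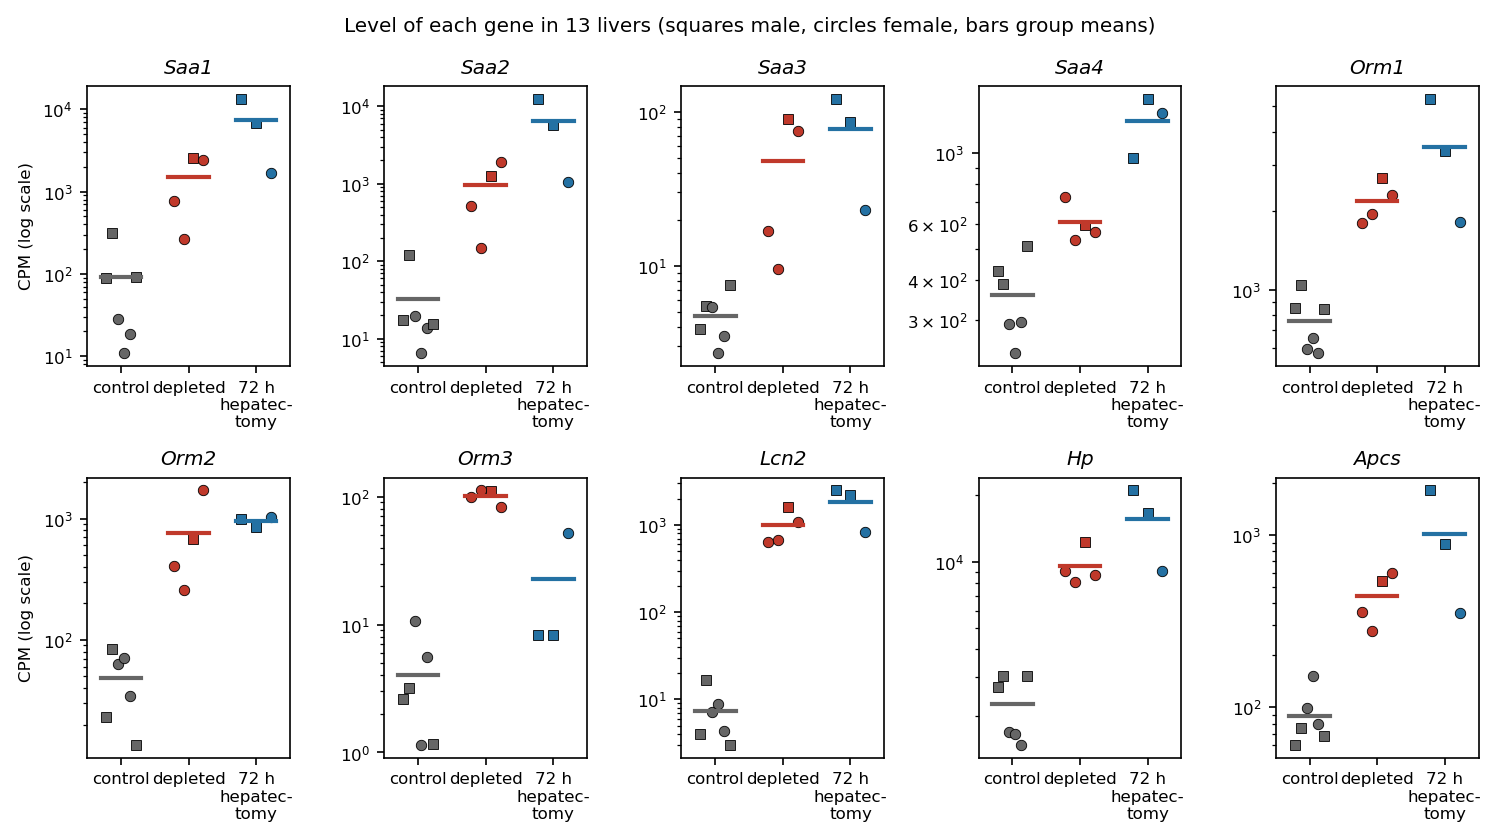
Level of each of the 10 genes in CPM, on a log scale, in 6 control, 4 depleted and 3 hepatectomised livers. Each symbol is 1 liver (squares male, circles female) and bars are group means; Lcn2 in every depleted and hepatectomised liver lies at or above 642 CPM while no control exceeds 16.9 CPM, and Saa4 moves least.

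Among the inducible serum amyloids, Saa1 was at 10.8 CPM in the lowest control, 59.1 CPM at the median and 310.2 CPM in the highest. It was at 772, 262, 2553 and 2422 CPM in depleted replicates 1 to 4, and at 13434, 6848 and 1666 CPM in hepatectomised replicates 1 to 3. Depleted replicate 2, a female, lay below control replicate 2, a male, so the depleted and control ranges overlapped. The female controls reached 28.1 CPM at most. Every hepatectomised liver exceeded every control at least 5.37-fold. The mean of the depleted livers was 16.4 times and that of the hepatectomised livers 79.9 times the control mean. On the fitted log2 scale, with sex in the model, Saa1 was 5.37 ± 0.71 (SE) above control in depleted and 6.18 ± 0.70 above control in hepatectomised livers.

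For Saa2 the hepatectomised livers fell in the same order as for Saa1. Its controls ran from 6.47 CPM through a median of 16.5 CPM to 120.2 CPM. Depleted livers were at 515, 149, 1279 and 1897 CPM and hepatectomised livers at 12540, 5713 and 1063 CPM. Neither group overlapped the controls, although depleted replicate 2 cleared the highest control by only 1.24-fold. The log2 fold changes were 5.74 ± 0.88 and 7.20 ± 0.93. Within a group Saa1 and Saa2 were the most variable members, with 9.76-fold and 12.8-fold between the highest and lowest depleted liver and 8.07-fold and 11.8-fold between the highest and lowest hepatectomised liver.

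Control replicate 2, a male, held the highest control level of 5 of the 10 genes, among them Saa1 at 310.2 CPM and Saa2 at 120.2 CPM. The other 5 controls did not exceed 91.3 CPM for Saa1 or 19.6 CPM for Saa2. Leaving out single livers and changing the scaling, filter, model or test moved the log2 fold change of Saa1 between 4.04 and 5.90 in depleted and between 5.89 and 6.76 in hepatectomised livers. That of Saa2 stayed between 4.69 and 6.17 in depleted and between 6.52 and 8.26 in hepatectomised livers.

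Saa3 was the least abundant serum amyloid. Its controls were at 2.70 to 7.56 CPM, with a median of 4.65 CPM. Depleted livers were at 16.8, 9.61, 89.6 and 75.7 CPM and hepatectomised livers at 122, 86.0 and 23.0 CPM. All depleted and all hepatectomised livers lay above all controls, and depleted replicate 2 was again the lowest of its group. Its log2 fold change was 3.48 ± 0.52 in depleted and 3.62 ± 0.58 in hepatectomised livers.

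Saa4, the constitutive form, was already at 235 to 512 CPM in controls, with a median of 342 CPM. It reached 728, 533, 595 and 567.5 CPM in depleted livers and 966, 1481.5 and 1338 CPM in hepatectomised livers. The lowest depleted liver stood 1.04-fold above the highest control and the lowest hepatectomised liver 1.89-fold above it. Saa4 showed the smallest log2 difference from control of the 10 genes in both groups, at 0.87 ± 0.20 and 1.81 ± 0.21.

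Among the orosomucoids, Orm1 was abundant at rest. Its controls ran from 573 to 1043 CPM, with a median of 751 CPM. Depleted livers were at 1791, 1938, 2670.5 and 2291.5 CPM and hepatectomised livers at 5351, 3369 and 1813 CPM. Both groups lay wholly above the controls, by at least 1.72-fold and 1.74-fold, and the female hepatectomised liver fell among the depleted livers. The log2 fold changes were 1.71 ± 0.18 and 2.03 ± 0.19.

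Orm2 had lower and more scattered controls, from 13.6 to 83.7 CPM with a median of 48.5 CPM. It was at 406, 258, 683 and 1711 CPM in depleted livers and at 1001, 849 and 1032 CPM in hepatectomised livers. The hepatectomised livers were close together, with 1.22-fold between highest and lowest, while the depleted livers spread over 6.64-fold around them. Its log2 fold changes from control were 3.92 ± 0.59 and 4.39 ± 0.62.

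For Orm3, the third orosomucoid gene, controls were at 1.15 to 10.6 CPM, with a median of 2.92 CPM. The depleted livers were at 100.1, 112, 111 and 83.4 CPM, the narrowest spread of the 10 genes in that group at 1.35-fold. The hepatectomised livers were at 8.29, 8.34 and 51.9 CPM, so that both males lay below the highest control, a female. The male controls reached 3.21 CPM at most. The log2 fold change was 4.62 ± 0.58 in depleted and 2.43 ± 0.57 in hepatectomised livers, and without hepatectomised replicate 3, the female, the latter was 1.51.

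Lcn2 had the largest fitted difference from control of the 10 genes in both groups. Controls were at 3.0 to 16.9 CPM, with a median of 5.79 CPM. Depleted livers were at 642, 682, 1591 and 1079.5 CPM and hepatectomised livers at 2508, 2227 and 827 CPM. The lowest depleted liver was 38.0 times and the lowest hepatectomised liver 49.0 times the highest control. Its log2 fold changes were 7.18 ± 0.53 and 7.73 ± 0.56.

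Lipocalin 2 is also a neutrophil granule protein and Saa3 a macrophage product, so the markers of those cells were measured beside them. The summed level of 13 neutrophil markers was 0.990 to 5.51 CPM in controls, 235 to 437 CPM in depleted and 33.7 to 100.9 CPM in hepatectomised livers. Ly6g, a surface marker of mature neutrophils, had 0 counts in every control. Of the 12 tested, 12 rose in depleted and 9 in hepatectomised livers (median log2 fold change 7.77 and 4.11, or 7.57 and 3.87 with Ly6g set to its bound of 3 counts per control library), beside -0.03 and -0.02 for all genes. Without control replicate 1 or 2, the count in hepatectomised livers was 6, and with the replicate number as a block it was 7, with Ly6g and Camp, an antimicrobial granule protein, no longer called (adjusted p = 0.0957 and 0.0668). Of the 12, 10 were higher in depleted than in hepatectomised livers (7 without depleted replicate 3). Prtn3, proteinase 3 of neutrophil granules, was at 0.200 CPM in controls, 17.4 CPM in depleted and 45.5 CPM in hepatectomised livers, so its means stood in the same order as those of Lcn2, and its difference between the 2 conditions did not pass (-0.85, adjusted p = 0.530). The 12 monocyte and macrophage markers summed to 90.0 to 680 CPM in controls, 1575 to 2963 CPM in depleted and 113 to 918 CPM in hepatectomised livers, and 9 of them (7 without depleted replicate 3) and 1 rose. The latter was Chil3, named after its values were seen, which did not pass with limma-voom (adjusted p = 0.0662). By edgeR 0 fell in either group (1 and 0 at an unadjusted p under 0.05, 0 and 0 by DESeq2, 1 and 0 by limma-voom), and 1 fell in depleted livers without depleted replicate 4 or in females alone. The Kupffer cell genes Clec4f and Vsig4 of this list, named after their values were seen, had lower means in depleted livers than in controls, and neither passed the test. Clec4f had a median of 119 CPM in controls and 2.81 CPM in depleted livers (-3.00, adjusted p = 0.0872), and Vsig4 a mean of 35.2 CPM in controls and 20.1 CPM in depleted livers (-0.88, adjusted p = 0.287). T cell markers summed to 3.78 to 6.51 CPM, 59.9 to 155 CPM and 3.94 to 6.06 CPM, and 9 of 9 rose in depleted livers and 0 of 9 were called in hepatectomised livers by edgeR, by DESeq2, by limma-voom or at an unadjusted p under 0.05. The part of these cells in the levels of Lcn2 and Saa3 was not tested.

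Hp was the most abundant member in controls, at 1472 to 3039 CPM with a median of 2186 CPM. It was at 9084, 8079.8, 12239 and 8667 CPM in depleted livers and at 21116, 16581 and 9061.5 CPM in hepatectomised livers. The groups lay clear of the controls by at least 2.66-fold and 2.98-fold. The log2 fold changes, 2.33 ± 0.14 and 2.64 ± 0.14, had the smallest errors of the 10.

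Apcs was at 60.4 to 150.9 CPM in controls, with a median of 77.8 CPM. It was at 356, 276, 541 and 602 CPM in depleted livers and at 1813.5, 882 and 353 CPM in hepatectomised livers, with no overlap of either group with the controls. Its log2 fold change was 2.33 ± 0.41 and 3.47 ± 0.48.

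Taken over the members, the lowest depleted liver lay above the highest control for 9 of 10 genes, Saa1 being the exception, and the lowest hepatectomised liver did so for 9 of 10, Orm3 being the exception. The same held for 16.5% and 7.41% of all genes tested; the members were chosen on these contrasts, so nothing is read from the difference. Livers differed from one another in the same way across several members. Depleted replicate 2 was the lowest of its group for 7 genes and depleted replicate 3, the only male, the highest for 5. Hepatectomised replicate 1, a male, was the highest for 7 genes, and replicate 3, the only female, was the lowest for the same 7 (Saa1, Saa2, Saa3, Orm1, Lcn2, Hp and Apcs). With 1 liver of that sex in each of these groups, a sex difference within them cannot be told apart from a difference between livers.

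Levels were compared between genes only after division by the gene length in the deposited table (CPM per kb). That length was 2015 bases for Saa4, whose coding sequence has 390, and 605 bases for Saa1, with 366. For Lcn2 it was 2623 bases. Where this length exceeds that of the transcripts present, the level per kb comes out too low, which was not tested. In controls Hp stood first at 1681 CPM per kb and Orm1 next at 982 CPM per kb, followed at a distance by Saa4 at 178 CPM per kb and Saa1 at 151 CPM per kb. Lcn2 was last at 2.81 CPM per kb. Of the neighbouring pairs in the control order, only the ranges of Orm1 and Saa4 did not overlap. In the depleted livers the order began with Hp at 7087, Orm1 at 2804, Saa1 at 2483 and Saa2 at 1573 CPM per kb and ended with Orm3 at 131 and Saa3 at 90.3 CPM per kb. Here Hp and Orm1, and Saa4 and Orm3, did not overlap, while the other neighbours did. In the hepatectomised livers Saa1 at 12092, Hp at 11605 and Saa2 at 10555 CPM per kb headed the list with overlapping ranges, and Orm3 closed it at 29.6 CPM per kb. Orm1 and Orm2, and Saa4 and Saa3, were the neighbours without overlap in that group. By its mean, Saa4 ranked 3 of 10 in controls and 8 of 10 in both other groups.

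Which livers carried more of these transcripts was asked directly by comparing the depleted with the hepatectomised livers, a contrast that the choice of genes did not fix. It is not independent of that choice, since it uses the same livers as the differences from control known beforehand. Orm3 was higher in depleted livers and Saa4 was higher in hepatectomised livers, and the other 8 genes did not pass the test. Across all genes 13.3% were called higher in depleted and 10.1% higher in hepatectomised livers, so 2 of 10 members called, 1 in each direction, is near the background of 23.4%. The members' median log2 fold change, depleted over hepatectomised, was -0.51 beside -0.05 for all genes. The TMM-scaled mean level was higher after hepatectomy for 9 of the 10 genes, and the share of all genes doing so was not counted. With scaling to library size alone, the fitted values of Orm1, Orm2 and Hp were -0.0013, -0.099 and 0.013, and Saa3 was at 0.23. Those of Saa1, Saa2, Saa4, Lcn2 and Apcs stayed negative under that scaling. The ranges of the depleted and hepatectomised livers did not overlap for 2 members, Orm3 and Saa4, and for 34.0% of all genes tested.

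Orm3 was 2.18 ± 0.68 higher on the log2 scale in depleted livers (95% interval 0.713 to 3.66, edgeR adjusted p = 0.0352). The lowest depleted liver, at 83.4 CPM, stood above the highest hepatectomised liver, at 51.9 CPM. The call was lost without depleted replicate 3 (log2 fold change 1.44, adjusted p = 0.194), hepatectomised replicate 1 (1.91, adjusted p = 0.108) or hepatectomised replicate 2 (adjusted p = 0.126), without the sex term (adjusted p = 0.0704) and without the low-count filter (adjusted p = 0.0550). Saa4 was lower by 0.93 ± 0.24 on the log2 scale in depleted livers (log2 fold change -0.93, 95% interval -1.45 to -0.41, adjusted p = 0.0140). Its highest depleted liver, at 728 CPM, lay below its lowest hepatectomised liver, at 966 CPM. This call was lost without depleted replicate 3 (-0.79, adjusted p = 0.0813), without hepatectomised replicate 3 (-0.66, adjusted p = 0.144) and with scaling to library size alone (-0.61, adjusted p = 0.0619).

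For the 8 genes that did not pass, the intervals show what sizes of difference the livers leave possible. Apcs was at -1.14 (95% interval -2.30 to 0.02, adjusted p = 0.146), and without hepatectomised replicate 3 it passed at -1.83 with an adjusted p of 0.0189. Saa1 was at -0.80 with an interval from -2.49 to 0.88, and Saa2 at -1.46 with an interval from -3.68 to 0.76. The means of Saa1 and Saa2 were 4.87-fold and 6.71-fold higher in hepatectomised livers, while the individual livers overlapped. These fitted values moved with the model: without the sex term they were -2.28 (adjusted p = 0.147) and -2.75 (adjusted p = 0.0830), and over livers left out they ran from -1.71 to -0.32 for Saa1 and from -2.42 to -0.92 for Saa2. The strongest of these, without depleted replicate 4, had adjusted p of 0.0561 and 0.0587; the weakest were without depleted replicate 3. Lcn2 was at -0.55 (-1.76 to 0.65) and Orm2 at -0.47 (-1.97 to 1.02). The narrow intervals belonged to Hp, at -0.31 (-0.67 to 0.06), and Orm1, at -0.32 (-0.81 to 0.16). Over all alternatives Lcn2 ran from -0.94 to -0.22, Orm2 from -1.10 to -0.10 and Orm1 from -0.69 to -0.0013, and none of these passed. Saa3 was at -0.14 (-1.53 to 1.26), and its sign turned to 0.23 with scaling to library size alone, under which Hp also turned, to 0.01.

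**Figure D2:**
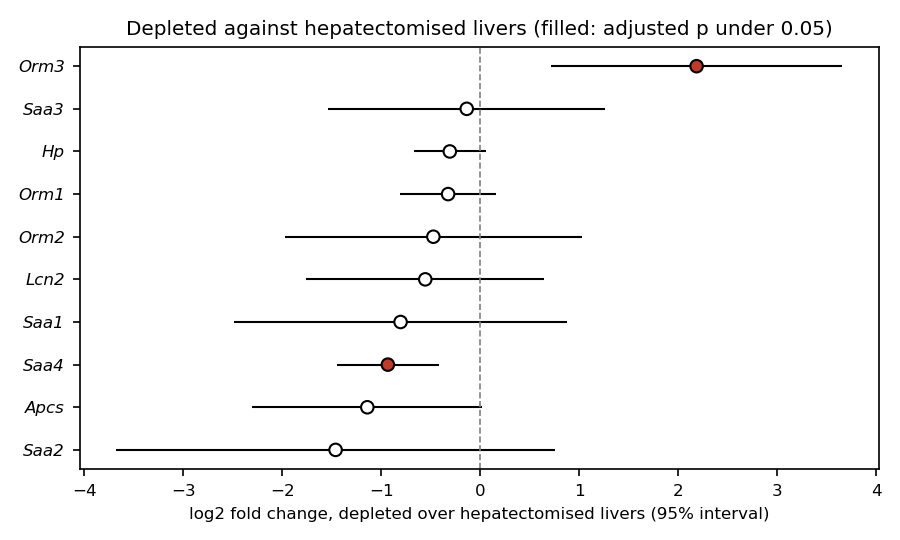
log2 fold change of each of the 10 genes, depleted over hepatectomised livers (4 against 3), with its 95% interval from edgeR. Filled points, Orm3 at 2.18 and Saa4 at -0.93, have an adjusted p under 0.05; the intervals of the other 8 cross 0.

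The make-up of each family was compared as the share of 1 gene in the family's summed CPM per kb, so the shares also rest on the deposited gene lengths. Saa4 provided 57.1% ± 19.7 of the Saa sum in controls (SD, n = 6), 12.5% ± 11.2 in depleted (n = 4) and 5.76% ± 6.17 in hepatectomised livers (n = 3). Saa1 provided 29.0%, 52.8% and 52.1%, and Saa2 11.0%, 32.8% and 41.4%. In control replicate 2 Saa1 already provided 56.2% and Saa4 21.1%. The share of Saa3 was 2.85% ± 1.16 in controls, 1.88% ± 0.502 in depleted and 0.704% ± 0.157 in hepatectomised livers. All 4 depleted livers (1.26% to 2.49%) exceeded all 3 hepatectomised livers (0.529% to 0.832%), a difference of 1.18 percentage points with a two-sided exact permutation p of 0.0571, the smallest that 4 against 3 can give, and 0.114 after adjustment over the 4 shares tested.

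Among the orosomucoids, Orm1 provided 93.4% ± 3.73 of the summed CPM per kb in controls, 73.8% ± 12.2 in depleted and 75.5% ± 11.4 in hepatectomised livers. The 2 latter values differed by -1.71 percentage points (two-sided exact permutation p = 0.686, adjusted p = 0.914). Orm2 provided 6.07%, 22.6% and 23.8%, a difference of -1.21 percentage points between depleted and hepatectomised livers (exact permutation p = 0.971). Orm3 provided 0.564% ± 0.578 in controls, 3.62% ± 1.26 in depleted and 0.708% ± 0.943 in hepatectomised livers. Its depleted values, 2.05% to 4.87%, all exceeded its hepatectomised values, 0.131% to 1.80%, again at the smallest exact permutation p possible (0.0571, adjusted p = 0.114). The permutations of shares had no sex term, although the 2 groups differ in their make-up by sex. The hepatectomised males were at 0.131% and 0.198% and the female at 1.80%, and the part of sex in these shares was not tested.

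**Figure D3:**
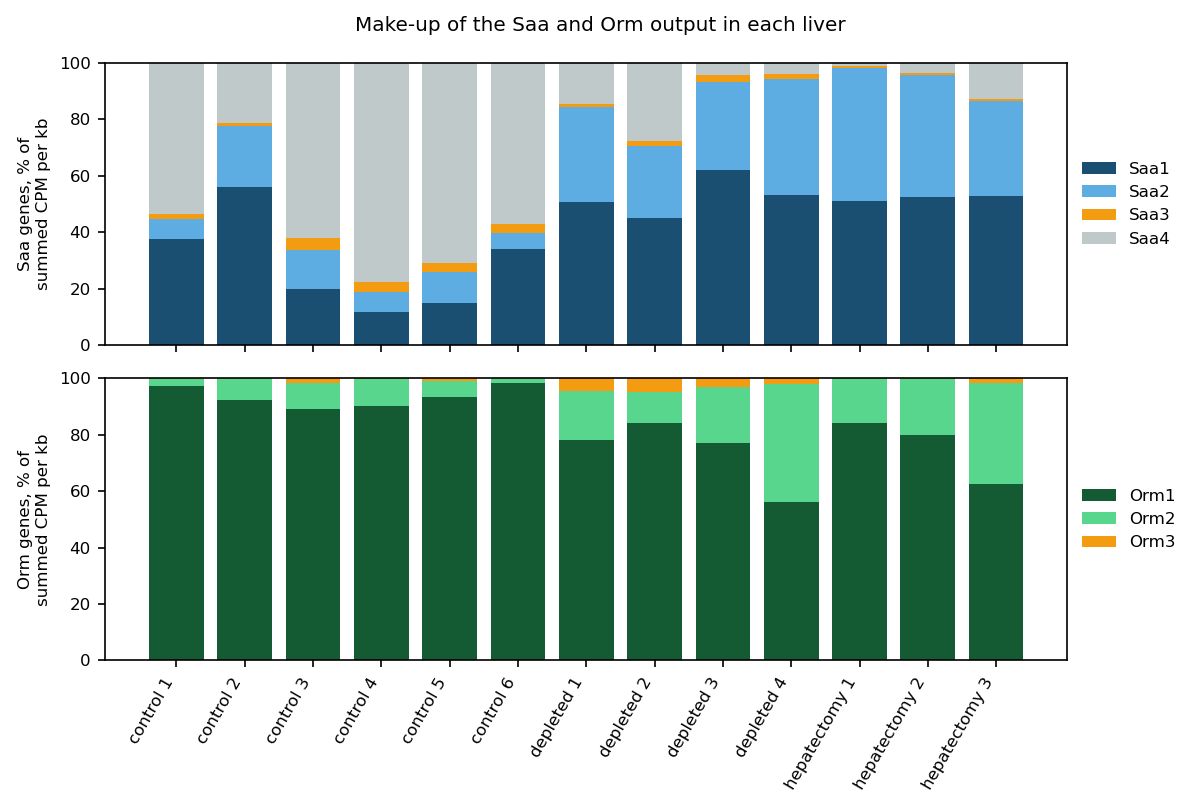
Share of each Saa gene (upper panel) and each Orm gene (lower panel) in the family's summed CPM per kb, as stacked bars in percent, for the 13 livers. Saa4 makes up 21.1% to 77.7% of the Saa bar in controls and at most 27.6% in the other livers, and Orm3 reaches 4.87% of the Orm bar in a depleted liver.

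Male and female controls were then compared, a contrast with no part in the choice of genes. Hp was higher in males and was the only member called by edgeR, where 0.384% of 13005 tested genes were called higher in males and 0.354% higher in females, 0.738% in all. The 3 male controls were at 2692, 3018 and 3039 CPM and the 3 females at 1680, 1641 and 1472 CPM, a log2 fold change of 0.87 ± 0.15 (edgeR adjusted p = 0.0477). The call was lost in 8 of 11 alternatives, with adjusted p up to 0.231. These included the fit without each of the 6 controls in turn, where the log2 fold change stayed between 0.81 and 0.92. Saa1 was at 90.0, 310.2 and 91.3 CPM in males and at 28.1, 10.8 and 18.6 CPM in females, without overlap, and its log2 fold change of 3.10 ± 0.65 did not pass (adjusted p = 0.147). It passed without control replicate 2 (2.24, adjusted p = 0.0478) and with DESeq2 (adjusted p = 7.48e-04), which called 448 genes where edgeR called 96. DESeq2 also called Saa4 (0.69, adjusted p = 0.00963) and Orm1 (0.59, adjusted p = 0.0140) higher in males. The ranges of males and females did not overlap for 5 members, with Saa1, Saa4, Orm1 and Hp higher in males and Apcs higher in females, beside 20.8% of all genes tested whose ranges did not overlap in either direction. Apcs was at -0.70 ± 0.23 (adjusted p = 0.290).

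All gene lists, the cell type markers among them, were chosen with earlier results of these data known. Their counts of calls are therefore a description, and nothing is read from their distance to the all-gene shares. Of 18 other positive acute phase genes, 10 rose in depleted livers and 14 in hepatectomised livers, against 18.9% and 6.06% of all genes (33.9% and 8.42% were called in either direction), and 0 fell by edgeR in either (1 and 0 at an unadjusted p under 0.05; 1 and 0 by both DESeq2 and limma-voom). The 8 that did not pass in depleted livers included the 3 fibrinogen chains (0.21 to 0.33), Crp, C-reactive protein (0.20), and Hamp, the iron regulator hepcidin, which was at 889.5 CPM in controls and 396.7 CPM in depleted livers (-1.18, adjusted p = 0.0730), all named after their values were seen. Of the fibrinogen chains, Fga (0.33, adjusted p = 0.0572) passed with DESeq2 (adjusted p = 0.00533), with library size alone (0.44, adjusted p = 0.0213) and without control replicate 3 (adjusted p = 0.0368) or depleted replicate 2 (adjusted p = 0.0433). The median log2 fold change was 0.87 in depleted and 1.82 in hepatectomised livers, beside -0.03 and -0.02 for all genes. Leaving out single livers gave 8 to 11 and 12 to 14 rises, and 1 fall at most in depleted livers. Both groups showed rises in Il1rn, the interleukin 1 receptor antagonist (2.89 and 3.28), in Fgl1, a hepatocyte-secreted fibrinogen-like protein (2.43 and 3.33), and in Lbp, the lipopolysaccharide-binding protein (2.19 and 1.86). Steap4, a metalloreductase, rose by 1.70 in depleted livers (adjusted p = 0.0119, but 0.0673 without depleted replicate 3 and 0.0617 with the replicate block) and by 3.52 in hepatectomised livers.

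Several genes of this list differed between the 2 conditions. Of the 18 genes, 8 were lower and 1 was higher in depleted than in hepatectomised livers, against 10.1% and 13.3% of all genes, and the list's median was -0.59 beside -0.05. Leaving out single livers gave 6 to 8 lower and 0 to 1 higher. Fgg, the fibrinogen gamma chain, was at 3621 ± 449 CPM in controls (SD, n = 6), 4076 ± 503 CPM in depleted (n = 4) and 11980 ± 1621 CPM in hepatectomised livers (n = 3). The depleted livers (3425 to 4609 CPM) overlapped the controls (2921 to 4004 CPM), and the hepatectomised livers, from 10150 CPM, lay above both. Fgg was 1.47 ± 0.17 lower in depleted than hepatectomised livers on the log2 scale (log2 fold change -1.47, adjusted p = 1.35e-04), and its difference from control in depleted livers was 0.22 (adjusted p = 0.236). Fga and Fgb, the other fibrinogen chains, named after their values were seen, were at -1.46 and -1.42 in the same comparison. A2m, alpha-2-macroglobulin, was at 0.060 to 0.268 CPM in controls, at 0.035 to 0.490 CPM in depleted and at 2.30 to 81.0 CPM in hepatectomised livers, a log2 fold change of -7.05 ± 1.29 (adjusted p = 0.00243) between the latter. The 1 gene in the other direction was the ferroxidase gene Cp, named after its values were seen, at 1144, 4245 and 2154 CPM (1.00 ± 0.26, adjusted p = 0.0158). Its call was lost without depleted replicate 3 (adjusted p = 0.0552), hepatectomised replicate 2 (adjusted p = 0.0521) or hepatectomised replicate 3 (adjusted p = 0.0517), and with only those 2 groups fitted (adjusted p = 0.116). Fgl1 (-0.90, adjusted p = 0.0445) and Steap4 (-1.83, adjusted p = 0.0374) were also lower in depleted livers, and these calls were lost in 11 and 12 of 22 alternatives, the replicate block among them (adjusted p = 0.0743 and 0.152).

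**Figure D4:**
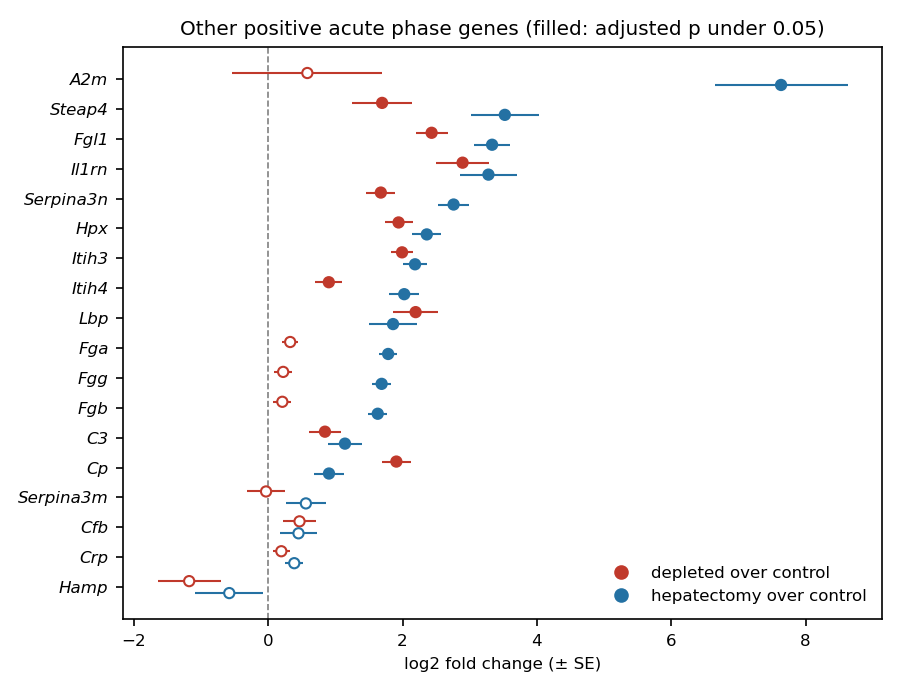
log2 fold change over control (± SE) of 18 other positive acute phase genes in depleted (red) and hepatectomised (blue) livers; filled points have an edgeR adjusted p under 0.05. Fibrinogen Fgg stands at 0.22 in depleted and 1.69 in hepatectomised livers, and A2m at 0.58 and 7.63.

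The negative acute phase genes, plasma proteins that the liver makes less of during the response, had few calls. Of 8, 2 fell and 1 rose in depleted livers (median log2 fold change 0.00), where 15.0% of all genes fell and 18.9% rose, and 0 fell and 2 rose in hepatectomised livers (median 0.51), where 2.36% fell and 6.06% rose, by edgeR. In hepatectomised livers 0 also fell by DESeq2, by limma-voom or at an unadjusted p under 0.05, and without depleted replicate 3 the list had 1 fall in depleted livers. Serpina6, corticosteroid-binding globulin, fell by 2.65 on the log2 scale in depleted livers (adjusted p = 0.0100, 0.0528 without depleted replicate 3), and Rbp4, the plasma retinol carrier, fell by 0.90 (adjusted p = 0.00450). Both calls were lost in the fit on females alone, at adjusted p = 0.123 and 0.121. Trf, transferrin, rose by 0.69 in depleted and by 0.94 in hepatectomised livers, the latter with an adjusted p of 0.0115, or 0.0549 without hepatectomised replicate 3. Ahsg, fetuin A, rose by 0.71 in hepatectomised livers (adjusted p = 0.0163). That call was lost with the replicate block (adjusted p = 0.110) and without hepatectomised replicate 2 (adjusted p = 0.0741) or 3 (adjusted p = 0.0700), the latter of which left 0 rises in the list. Rbp4 and Ahsg were lower in depleted than in hepatectomised livers, at -0.86 and -0.67. Without depleted replicate 3 the adjusted p was 0.107 and 0.0537, and without hepatectomised replicate 3 it was 0.137 and 0.0821. Ahsg also lost its call with library size alone (-0.36, adjusted p = 0.117) and with only those 2 groups fitted (adjusted p = 0.118).

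Upstream, Il6, the main inducer of these genes, was too low to test, at 0.028 ± 0.027 CPM in controls, 0.105 ± 0.143 CPM in depleted and 0.075 ± 0.059 CPM in hepatectomised livers, with 0.312 CPM in the highest liver. Of the 17 cytokines and receptors listed, 13 could be tested; 6 rose and 2 fell in depleted livers (4 and 1 without depleted replicate 3), and 4 rose and 1 fell in hepatectomised livers. Among all genes 18.9% rose and 15.0% fell in depleted and 6.06% and 2.36% in hepatectomised livers. Without any 1 of control replicates 2 to 6, depleted replicates 1 or 2, or hepatectomised replicates 2 or 3, the 4 rises were 2. Named after their values were seen, the falls were in Lifr (-1.92, adjusted p = 7.24e-04) and Il1rap (-0.68, adjusted p = 0.0213, 0.119 without depleted replicate 3 and 0.267 in females alone) in depleted livers, and in Nr3c1 (-0.72, adjusted p = 0.0174, and 0.0534 to 0.0662 without any 1 hepatectomised liver) in hepatectomised livers. Between the 2 conditions 2 were higher and 0 lower in depleted livers by edgeR (3 and 2 at an unadjusted p under 0.05, 3 and 2 by DESeq2, 3 and 1 by limma-voom), near the 13.3% and 10.1% of all genes. The list's medians were 0.69 and 0.39. Tnf was at 0.285 ± 0.178 CPM in controls, 3.96 ± 2.55 CPM in depleted and 0.127 ± 0.040 CPM in hepatectomised livers. It was 4.90 ± 0.81 higher in depleted than in hepatectomised livers on the log2 scale (adjusted p = 0.00127). Il1b, interleukin 1 beta, was at 1.25, 8.17 and 1.80 CPM, and its difference between the 2 conditions (2.01, adjusted p = 0.0276) was lost without depleted replicate 3 (adjusted p = 0.109), hepatectomised replicate 1 (adjusted p = 0.0790) or hepatectomised replicate 3 (adjusted p = 0.113). Osm, oncostatin M, had 0 counts in all controls and a mean of 0.670 CPM in depleted livers, at least 8.88-fold above the level of 3 counts per control library.

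On the receptor side, Il1r1, the interleukin 1 receptor, rose by 1.33 on the log2 scale in depleted livers and by 2.65 in hepatectomised livers (adjusted p = 0.0213 and 0.00388). The first of these was lost without depleted replicate 2 (adjusted p = 0.0559) or 3 (adjusted p = 0.0908) or with the replicate block (adjusted p = 0.133), and the second with the replicate block (adjusted p = 0.0654). Osmr, the oncostatin M receptor, rose by 1.86 in depleted livers (adjusted p = 0.00909, 0.0535 without depleted replicate 3 and 0.0578 with the block) and by 1.92 in hepatectomised livers (adjusted p = 0.0401). Il6ra, the interleukin 6 receptor, rose by 1.20 in hepatectomised livers (adjusted p = 0.0430). The Osmr and Il6ra calls in hepatectomised livers were each lost in 14 of 22 alternatives, with adjusted p up to 0.303 and 0.251, and with the replicate block at 0.233 and 0.0856. Tnfrsf1a, a TNF receptor and the other rise in hepatectomised livers, named after its values were seen, was at 0.79 (adjusted p = 0.00773, 0.0696 with the replicate block). With that block 0 of the 13 genes rose in hepatectomised livers.

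The signalling and transcription factor list, 14 of whose 15 genes were measured, had 8 rises and 1 fall in depleted livers (5 and 1 without depleted replicate 3) and 4 rises and 1 fall in hepatectomised livers, against 18.9% and 15.0%, and 6.06% and 2.36%, of all genes. The medians were 0.57 and 0.27; Cebpd was not analysed here. Socs3, the feedback inhibitor that STAT3 induces, was at 6.13 ± 2.82 CPM in controls, 26.6 ± 10.1 CPM in depleted and 118.8 ± 81.2 CPM in hepatectomised livers. It was 1.94 lower on the log2 scale in depleted than in hepatectomised livers (log2 fold change -1.94, adjusted p = 0.0143). This call was lost without depleted replicate 3 (adjusted p = 0.0599), hepatectomised replicate 2 (adjusted p = 0.0518) or hepatectomised replicate 3 (adjusted p = 0.134). The replicate block (adjusted p = 0.0939) and a fit of only those 2 groups (adjusted p = 0.0539) also lost the call. Stat3 itself rose by 0.82 in depleted and 1.17 in hepatectomised livers, and its difference between them was -0.35 (adjusted p = 0.227).

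Cebpb, a C/EBP factor that rises in the acute phase, rose by 1.32 and 2.18, from 21.6 ± 7.81 CPM in controls to 47.3 ± 12.5 CPM in depleted and 97.6 ± 35.9 CPM in hepatectomised livers. The difference between the 2 conditions (-0.86, adjusted p = 0.0409) was lost in 12 of 22 alternatives, the replicate block among them (adjusted p = 0.0689). Cebpa, the C/EBP factor of resting hepatocytes, fell by 1.00 in depleted and by 1.50 in hepatectomised livers, the first of which did not pass in females alone (-0.69, adjusted p = 0.0671). Nfkbiz, an NF-κB cofactor, rose by 1.56 and 1.31, and Nfkb2, an NF-κB subunit, by 1.44 in depleted livers. Jak2 was 0.84 higher in depleted than in hepatectomised livers (adjusted p = 0.00611, or 0.0555 without depleted replicate 3), and Nfkb1, named after its values were seen, 0.71 higher (adjusted p = 0.00949, 0.0855 without depleted replicate 3 and 0.0626 without hepatectomised replicate 3). Without depleted replicate 3, 0 genes of the list were called in either direction between the 2 conditions.

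The list of receptors, ligands and clearance partners of the members had most of its rises in depleted livers. Of 19 genes, 12 rose and 1 fell there, against 18.9% and 15.0% of all genes, and 1 rose and 0 fell in hepatectomised livers by edgeR (3 and 1 at an unadjusted p under 0.05; 1 and 0 by DESeq2 and by limma-voom), near the 6.06% and 2.36% of all genes, with medians of 1.88 and 0.21. Hmox1, the haem oxygenase that degrades haem taken up with haptoglobin, rose in both, by 1.88 and 1.56. Fpr2, a formyl peptide receptor that binds serum amyloid A, was at 0.981 ± 0.450 CPM in controls, 21.2 ± 5.97 CPM in depleted and 1.21 ± 0.743 CPM in hepatectomised livers. Mmp9, the gelatinase that forms a complex with lipocalin 2, was at 0.799, 18.0 and 1.5 CPM, and Fcgr3, an Fc receptor to which serum amyloid P can bind, at 6.86, 80.5 and 7.48 CPM. Between depleted and hepatectomised livers 10 of the 19 were higher and 2 lower, or 5 and 0 without depleted replicate 3, against 13.3% and 10.1% of all genes. Fpr2 differed by 4.22 ± 0.59 (adjusted p = 4.96e-04) and Mmp9 by 3.77 ± 0.86 (adjusted p = 0.00812). Lrp2, the endocytic receptor megalin, was at 0 to 0.193 CPM in depleted livers, with a median of 0.033 CPM that lies under the level of 3 counts, and at 0.948 to 2.95 CPM in hepatectomised livers. It was called lower in depleted livers (adjusted p = 0.0317), with a fitted fold that rests on these few counts, and the call was lost without depleted replicate 2, 3 or 4 or hepatectomised replicate 2 or 3 (adjusted p from 0.0509 to 0.155). The other lower gene was Scarb1 (-0.80, adjusted p = 0.0183), and the fall in depleted livers against control was Apoa2 (-0.73, adjusted p = 0.0248), both named after their values were seen. Without depleted replicate 3 their adjusted p was 0.0721 and 0.124; Scarb1 also lost its call without hepatectomised replicate 3 (0.162), with library size alone (0.0736) and with only those 2 groups fitted (0.0726), and Apoa2 in females alone (-0.47, adjusted p = 0.210) and without control replicate 3 (0.0572) or depleted replicate 1 (0.0571). Fpr2, Mmp9 and Fcgr3 are also expressed by neutrophils or macrophages, whose marker sums were highest in the depleted livers as given above, and the part of those cells was not tested.

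The genes whose profiles over the 13 livers were closest to those of Saa1, Orm2 and Lcn2 were found among 10769 genes with a mean log2 CPM of at least 1. The measure was the root mean square difference in log2 CPM after subtracting each gene's own control mean, so smaller is closer. For Saa1 the nearest genes outside the 10 were Prtn3 (1.39), Gadd45g (1.75), Cdkn1a (1.77), Cxcl1 (1.89) and Mt1 (2.02), while Saa2 stood at 0.849. For Orm2 they were Il1rn (0.954), Top2a (0.972), Ccna2 (0.989), Mki67 (1.03) and Cenpe (1.11), all nearer than the closest other member, Saa3 at 1.27. For Lcn2 they were Prtn3 (1.15), Mt2 (1.49), Cdkn1a (1.75), S100a9 (1.82) and S100a8 (1.85), with Saa2 at 1.57. These values describe likeness over the same 13 libraries and carry no test.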

How the data were processed

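Messenger RNA of 13 whole mouse livers was sequenced, per the labels' protocols, from TruSeq stranded mRNA libraries of TRIzol-extracted RNA. The authors deposited raw read counts per gene, made with STAR 2.7.1a, SAMtools 1.15.1 and featureCounts 1.6.4 on mm10, per the submitters' processing notes; strand and multi-mapping settings are not given in the sources used here. Of 22048 gene IDs, 21741 matched GENCODE M21 and 99.94% of these overlapped the same gene in GRCm38.

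Counts were filtered with filterByExpr, scaled by TMM and tested with edgeR 4.0.16 (R 4.3.3; quasi-likelihood, robust, two-sided) on group and sex over all 13 libraries, which left 13831 genes; the sex comparison used the 6 controls (13005 genes). P-values were adjusted over all genes tested, with a threshold of 0.05. Log2 CPM used a prior count of 2. The common biological coefficient of variation was 31.4%. Shares were compared by exact permutation without a sex term (scipy 1.17.1). TMM-scaled library sizes gave 0.0524 to 0.0900 CPM for 3 counts; reads carried no molecular identifiers, so this covers counting error only. No pair of libraries within a group was alike enough to be the same library deposited again (lowest median chi-square per gene 4.60). The labels do not say whether replicates came from separate animals, so p-values measure the spread between these samples. Same-numbered control and hepatectomised livers deviated together from their group means (r = 0.229, 0.107 and 0.523); they share their sex, and with sex removed r was 0.0836, -0.191 and -0.048. A fit with the replicate number as a block is given beside the results whose calls it changes. On simulated counts (200 of 13648 genes changed, depleted against control) the test recovered 47% of 2-fold and 87% of 4-fold changes, with 4 false calls among 138.

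The 10 genes and all lists were chosen with earlier results of these data known. Besides the 10, the text names per list and comparison up to 3 called genes with the largest log2 fold change, plus Il6, Stat3, Socs3, Cebpb, Cebpd and Nfkbiz, and 5 nearest genes each for Saa1, Orm2 and Lcn2; others are marked as chosen after their values were seen. Alternatives were the scaling, filter, test (DESeq2 1.42.0, limma-voom 3.58.1), sex term, libraries in the fit, a replicate block, summed paralogs and leaving out each library.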

Additional observations from a re-analysis of the deposited data

Results flagged for a closer look

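Of 20 groups of libraries examined for a single value far from the rest (10 genes in control and depleted livers; groups of 3 are not tested), 2 were picked out, and chance alone picks out about 1 in 20. Both belonged to control replicate 2. Its Saa1 level was 310.18 CPM, where the other controls ran from 10.8 to 91.3 CPM, and the gap to the nearest control was 0.731 of the whole range, above Dixon's critical value for 6 samples. Its Saa2 level was 120.22 CPM, where the others ran from 6.47 to 19.6 CPM, with a gap of 0.885 of the range. The same liver also held the highest control levels of Orm1, Orm2 and Lcn2, and its neutrophil marker sum of 5.51 CPM was the highest among controls.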

How the results depend on the processing

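Over the 10 genes, in depleted against hepatectomised livers and male against female controls, 299 of 330 alternative values kept their direction and their side of the threshold, 16 no longer passed, 5 newly passed and 10 changed sign. The differences from control were fixed by the choice of genes and are not counted here. The sign changes concerned genes that did not pass, apart from Orm3. Saa3, depleted against hepatectomised livers, turned to 0.23 with library size alone, 0.16 with only the 2 groups fitted, and 0.05, 0.11 and 0.17 without depleted replicate 1, depleted replicate 2 or hepatectomised replicate 1, in a range from -0.72 to 0.17 over livers left out. Hp turned to 0.013 with library size alone. Lcn2, male against female controls, turned to -0.11 with limma-voom, and to -0.97 and -0.02 without control replicate 2 or 5, in a range from -0.97 to 0.61 over controls left out. The difference in Orm3 became -0.30 when Orm1, Orm2 and Orm3 were summed, since that sum is mostly Orm1. The share of Orm1 in its family, depleted less hepatectomised, ran from -8.16 to 4.19 percentage points and that of Orm2 from -7.63 to 4.70 when single livers were left out.

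Counts over all genes moved more. Hepatectomised against control livers gave 2192 calls with library size alone, 1939 with DESeq2, 632 with the replicate block, and 483 to 1458 with 1 liver left out. Depleted against hepatectomised livers gave 2105 with only the 2 groups fitted and 1709 to 3850 with 1 liver left out. Depleted against control livers gave 2695 in females only and 2960 to 4928 with 1 liver left out, the fewest without depleted replicate 3. Male against female controls gave 448 with DESeq2 and 32 to 200 with 1 liver left out. The cause of these moves was not tested. Scaling to library size alone moved the all-gene median, on the log2 scale, from -0.02 to -0.24 in hepatectomised against control livers and from -0.05 to 0.27 in depleted against hepatectomised livers. It split the calls into 626 higher and 1566 lower (838 and 326 with TMM) and 3102 higher and 610 lower (1837 and 1399), and in depleted against control livers into 2884 and 1471 (2614 and 2078).

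The replicate numbers did not pair depleted livers with controls (r = -0.259, -0.192, -0.34 and 0.0729) or with hepatectomised livers (r = -0.00124, -0.132 and -0.351), since not every pair was above 0.1; with sex removed r was 0.0673, -0.0981, 0.416 and 0.0811, and 0.162, 0.0409 and 0.272. With the replicate block, depleted against control livers gave 3887 calls and depleted against hepatectomised livers 3170, and 0 calls of the 10 genes changed. Depth limits the lowest genes: Il6, Tnf, Osm, A2m, Lrp2, Ly6g, Camp and Prtn3 lay near or under the level of 3 counts in at least 1 liver.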
